A study of Homo sapiens with 14 samples.

Results

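KLF4 ChIP-seq peaks were examined at 9 genes of the TGF-β and SMAD pathway in BEAS-2B cells, an established human bronchial epithelial cell line. The 9 genes are named members of the pathway, TGFB1, TGFB2, TGFBR1, TGFBR2, SMAD3, SMAD6, SMAD7, SKIL and CCN2, out of 20033 protein-coding genes of GENCODE 44. A peak was given to a gene when its summit lay between 10 kb upstream of the annotated gene start and 2 kb past the gene end. The WT As3+ list held 32 peaks at 8 of the 9 genes and the Nrf2 KO control list 44 peaks at all 9. The WT control list held 4 peaks at 2 genes, TGFB1 and SMAD6, and the Nrf2 KO As3+ list held none.

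The study set WT cells beside cells without Nrf2, the transcription factor encoded by NFE2L2 that drives antioxidant genes, each with and without arsenite (As3+), a human lung carcinogen. The 4 KLF4 libraries were WT control, WT As3+ (1 µM for 6 h), Nrf2 KO control and Nrf2 KO As3+ (1 µM for 6 h), with 1 library in each condition. The KO cells came from CRISPR-Cas9 editing of exon 2, with colonies chosen by the absence of Nrf2 protein, and the WT cells were colonies that still expressed it. The number of clones behind each library is not given in the sources used here. With no replicate, no difference between conditions has a test, and the intervals given are exact 95% Poisson or Clopper-Pearson intervals that cover counting error only. Neither the cell type nor the knockout can be checked from a list of KLF4 peaks.

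TGF-β is a secreted dimer that is released from a latent complex and brings type II and type I receptor kinases together. The type I receptor phosphorylates SMAD2 and SMAD3, which join SMAD4, enter the nucleus and bind DNA at short CAGA-containing elements. SMAD6 and SMAD7 are inhibitory SMADs and SKIL (SnoN) is a co-repressor, and their genes are themselves induced by signals of the TGF-β superfamily, which closes feedback loops. In bronchial epithelium the pathway is known for growth arrest, matrix production and epithelial-mesenchymal transition. KLF4 is a zinc-finger factor that binds CACCC-type and GC-rich DNA.

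The stretches around some of the summits are shown here as examples. They surround WT control summits at SMAD6 and TGFB1 and the tied strongest WT As3+ summits of SMAD3, whose peaks had no Nrf2 KO control partner. The others surround the strongest WT As3+ summits of SMAD7 and TGFBR1, whose peaks had such a partner. Each is 141 bases centred on a summit in GRCh38, except that the TGFB1 stretch leaves out 20 untranslated bases, and each is written 5′ to 3′ along the strand of the named gene. Capitals mark, on either strand, the KLF-type word CCCACCC, its alternative forms spelled CCACACC or, where a CpG is present, CCACGCC, the AP-1 word TGACTCA, which reads on the opposite strand as TGAGTCA, the core of the antioxidant response element (ARE) TGACNNNGC, the SMAD word CAGACA and the GC box CCCCGCCCC. The SMAD6 stretch is the strongest WT control summit of that gene, in intron 3 at chr15:66763737-66763877 on the plus strand. The TGFB1 stretch is chr19:41310311-41310431 on the minus strand, the same summit base in the WT control and the WT As3+ list. The SMAD3 stretches, at chr15:67065129-67065269 and chr15:67121136-67121276 on the plus strand, the SMAD7 stretch, at chr18:48950084-48950224 on the minus strand, and the TGFBR1 stretch, at chr9:99105743-99105883 on the plus strand, are WT As3+ summits.
SMAD6 +61571 bp: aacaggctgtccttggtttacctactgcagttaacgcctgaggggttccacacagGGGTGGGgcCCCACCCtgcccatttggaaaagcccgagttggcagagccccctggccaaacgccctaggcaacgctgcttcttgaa
TGFB1 +43561 bp: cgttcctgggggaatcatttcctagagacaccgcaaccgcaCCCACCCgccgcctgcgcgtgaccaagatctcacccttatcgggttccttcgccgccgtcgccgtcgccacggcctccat
SMAD3 −403 bp: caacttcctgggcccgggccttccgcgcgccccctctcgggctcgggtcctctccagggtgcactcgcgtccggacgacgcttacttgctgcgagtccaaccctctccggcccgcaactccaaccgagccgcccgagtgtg
SMAD3 +55604 bp: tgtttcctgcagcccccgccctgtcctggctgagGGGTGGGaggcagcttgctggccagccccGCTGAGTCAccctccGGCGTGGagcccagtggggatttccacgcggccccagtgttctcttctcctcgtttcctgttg
SMAD7 +811 bp: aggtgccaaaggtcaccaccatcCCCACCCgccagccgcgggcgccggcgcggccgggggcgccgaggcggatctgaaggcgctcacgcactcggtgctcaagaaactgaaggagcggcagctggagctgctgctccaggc
TGFBR1 +700 bp: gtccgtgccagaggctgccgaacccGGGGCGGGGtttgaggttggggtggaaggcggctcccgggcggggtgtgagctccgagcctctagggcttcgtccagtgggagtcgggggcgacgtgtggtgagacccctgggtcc

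The SMAD6 stretch holds a KLF-type word on each strand, 2 bases apart. In the SMAD3 intron the AP-1 word TGAGTCA lies inside the ARE core, so the 9 capitals GCTGAGTCA are counted under both names. The TGFBR1 stretch holds a GC box, and the SMAD3 promoter stretch has none of the words. A match describes the letters and is not a binding site.

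The 4 lists were not of equal reach. They held 751 peaks (WT control), 29870 (WT As3+), 76545 (Nrf2 KO control) and 130 (Nrf2 KO As3+). Fragments over each summit (n) and the local background (λ, fragments expected there) were solved from the authors' fold and p, and n/λ is called fragments over background below. The lowest background was 1.90 fragments for WT control, 0.757 for WT As3+, 0.491 for Nrf2 KO control and 1.64 for Nrf2 KO As3+, and a summit at that level entered the list with 10, 5, 4 and 9 fragments. The 2 shorter lists thus had the higher solved backgrounds, and the part of the background in the peak counts was not tested. These are values behind the authors' peak calls and not a measured noise of each library. The KLF4 input is labelled BEAS-2B, without knockout or As3+, and how the background was scaled between libraries is not given in the sources used here.

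At least 1 peak was present at 2 of the 9 genes in the WT control, against 2.51% of all protein-coding genes. The count was 8 of 9 in the WT As3+ list (66.5% of all genes) and 9 of 9 in the Nrf2 KO control list (81.0%). It was 0 of 9 after As3+ in Nrf2 KO cells (0.439%). Within 2 kb of the canonical transcription start site (TSS) a summit was present at 1 gene in the WT control (0.794% of all genes), 8 in the WT As3+ (52.5%), 8 in the Nrf2 KO control list (67.5%) and 0 in the Nrf2 KO As3+ list (0.195%). The gene without a promoter peak was TGFB2 in the WT As3+ list and SMAD3 in the Nrf2 KO control list, the latter by the canonical TSS alone. A peak in the WT As3+ list and none in the WT control was found at 6 of the 9 genes and at 64.0% of all genes. A peak in both the WT As3+ and the Nrf2 KO control list was found at 8 of the 9 and, likewise, at 64.0% of all genes. Most genes carried a peak in these larger lists, so having a peak sets the 9 genes little apart there, and the number and place of the peaks carry more detail.

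**Figure D1:**
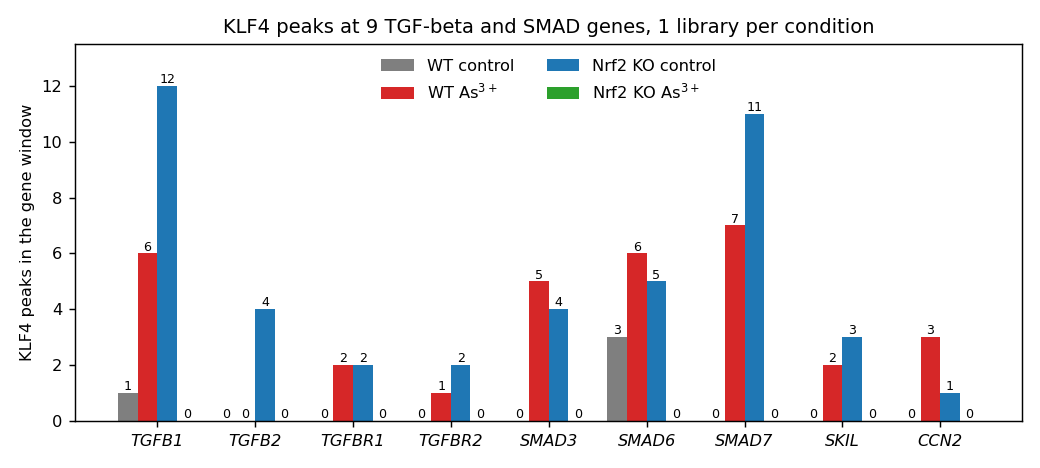
KLF4 peaks in the window of each of the 9 genes (vertical axis, number of peaks), 1 bar per library with its count written above. TGFB1 and SMAD7 carry the most peaks in the Nrf2 KO control (12 and 11), TGFB2 has peaks in that list alone, and the Nrf2 KO As3+ bars are all at 0.

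The windows of the 9 genes were longer than most, with a median of 64.3 kb against 39.5 kb, so counts were also set per length. Per 100 kb of window the 9 genes held 4.68 peaks in the WT As3+ list, against 1.93 over all protein-coding genes and 2.54 over 53 other genes of the pathway. In the Nrf2 KO control the density was 6.44 against 4.50 and 5.01. In the WT control it was 0.586 against 0.0347 and 0.0396, which rests on 4 peaks. The median gene among the 9 held 3.88 (WT As3+) and 5.40 (Nrf2 KO control) peaks per 100 kb, and the median protein-coding gene 1.71 and 4.24. For the 53 other pathway genes the median was 2.64 and 5.23, so in the Nrf2 KO control list the median of the 9 was close to theirs. The 9 genes thus stood further above the rest in the WT As3+ than in the Nrf2 KO control list, as a description without a test. These densities include peaks of the annotated TGFB1 gene that lie past its canonical transcript. The 9 genes were also chosen with earlier results of these data known.

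**Figure D2:**
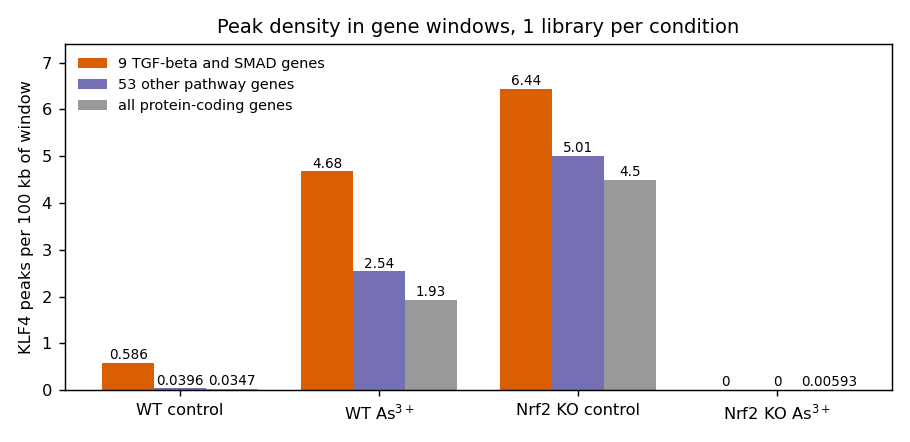
KLF4 peaks per 100 kb of gene window (vertical axis) in each library, for the 9 genes, 53 other pathway genes and all protein-coding genes. The 9 genes are above both other sets in 3 libraries and at 0 in the Nrf2 KO As3+ library.

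Among the ligands, TGFB1, which encodes the main TGF-β of epithelium and immune cells, held 1, 6, 12 and 0 peaks in the order WT control, WT As3+, Nrf2 KO control and Nrf2 KO As3+. Its promoter peak in the WT As3+ list was broad, 1771 bp at chr19:41352394-41354164, with the summit 159 bp past the TSS in the 5′ UTR, 24 fragments over a background of 1.16 (20.8 times, interval 13.3 to 30.9) and an authors' fold of 11.6. This stretch also lies within the annotated span of TMEM91. In the Nrf2 KO control the promoter summit lay 35 bp away, with 13 fragments over 0.677 (19.2 times, 10.2 to 32.9). These were the highest fragments over background of any peak at the 9 genes in either list, and their intervals overlap. A further peak in intron 1 stood at 11.3 times the background in both lists, with 20 and 13 fragments.

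The annotated TGFB1 gene in GENCODE 44 runs on past the canonical transcript and over CCDC97, so that 4 of its 6 WT As3+ peaks, 8 of its 12 Nrf2 KO control peaks and its WT control peak lie downstream of the canonical TGFB1 transcript. By p, the strongest WT As3+ peak of the window was one of these, at chr19:41310104-41310580, with its summit 43561 bp from the TGFB1 TSS but 189 bp from the TSS of CCDC97. It held 32 fragments over 1.93 and was number 263 of its list by p. The strongest Nrf2 KO control peak, at chr19:41323097-41324015 within CCDC97, held 16 fragments over 1.10 (14.6 times, 8.32 to 23.7), and its 200 bp around the summit contain 2 AP-1 words, 1 ARE core and 1 KLF word CCACACCC or CCACGCCC. Which gene these peaks act on, if any, is not measured in a peak list. With windows drawn from 10 kb upstream of the canonical TSS to 2 kb past the end of the canonical transcript, which moves both edges, the 9 genes held 3, 28, 35 and 0 peaks in the order WT control, WT As3+, Nrf2 KO control and Nrf2 KO As3+.

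TGFB2, the ligand that needs betaglycan (TGFBR3) for strong receptor binding, had no peak in the WT control, the WT As3+ or the Nrf2 KO As3+ list and 4 in the Nrf2 KO control. The strongest, at chr1:218345765-218346283, lay 761 bp past the TSS in the 5′ UTR, with 12 fragments over 1.12 (10.7 times, 5.52 to 18.7). The others lay 6407, 13405 and 51946 bp past the TSS in intron 1 with 9, 7 and 5 fragments. Only the promoter-proximal TGFB2 peak passed a −log10 q of 5, and TGFB2 was the member whose peaks all came from a single list.

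**Figure D3:**
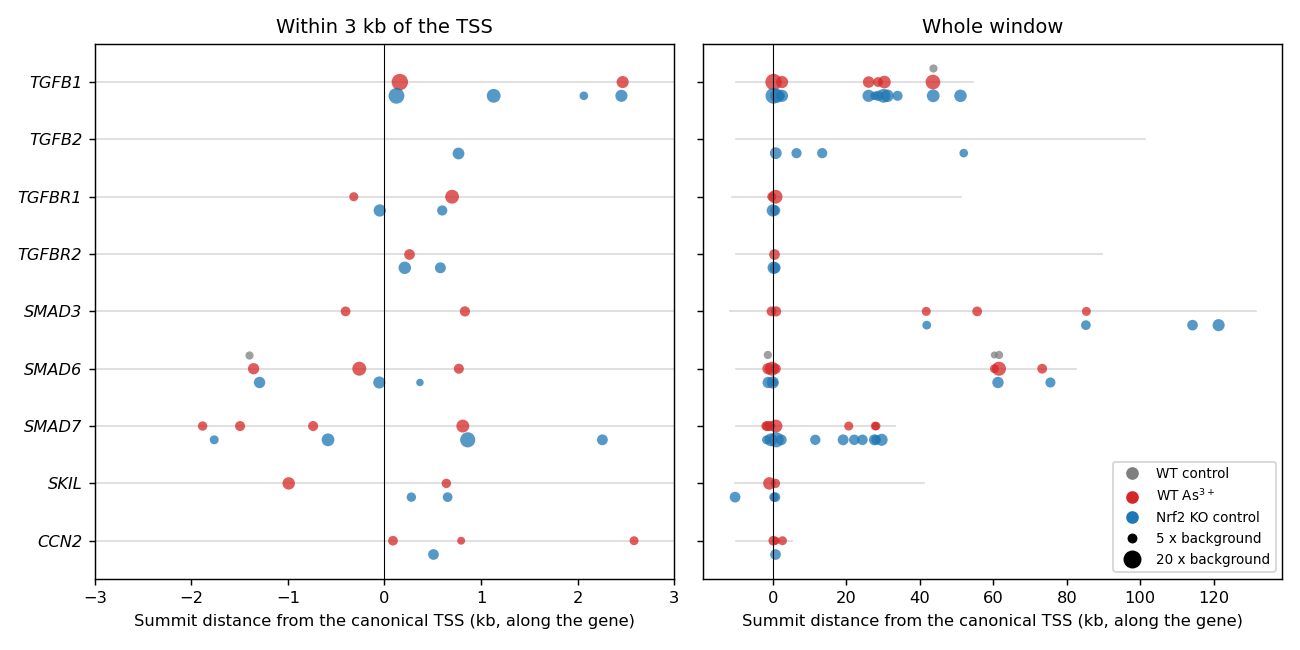
Summit distance from the canonical TSS in kb along each gene (horizontal axis), within 3 kb at left and over the whole window at right, with point size for fragments over background. Of the WT As3+ and Nrf2 KO control summits 17 and 16 lie within 2 kb of the TSS, TGFB1, TGFB2, SMAD3, SMAD6 and SMAD7 carry further summits beyond 20 kb, and the WT control summits lie at TGFB1 and SMAD6.

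Both receptor genes carried their peaks at the promoter. TGFBR1, the type I receptor kinase, held 2 peaks in the WT As3+ and 2 in the Nrf2 KO control list, all within 2 kb of the TSS. In the WT As3+ list the stronger lay in intron 1 at chr9:99105614-99106008, 700 bp past the TSS, with 17 fragments over 1.16 (14.7 times, 8.57 to 23.6), and the other 318 bp upstream with 11 fragments over 1.73 (6.35 times, 3.17 to 11.4). In the Nrf2 KO control the order was the other way round, with 13 fragments over 1.12 (11.6 times, 6.16 to 19.8) at chr9:99104788-99105203, 49 bp upstream, and 6 over 0.749 (8.01 times, 2.94 to 17.4) at 598 bp. The intervals overlap within and between the lists, and the change of order was not tested.

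TGFBR2, the type II receptor that binds the ligand, held 1 WT As3+ peak at chr3:30606583-30607019, 255 bp past the TSS in the 5′ UTR, with 16 fragments over 1.81 (8.84 times, 5.05 to 14.4). The Nrf2 KO control list held that site too, at chr3:30606493-30606936 with 14 fragments over 1.17 (11.9 times, 6.52 to 20), and a further peak 579 bp past the TSS with 9 fragments. Neither receptor gene had a peak in the WT control or the Nrf2 KO As3+ list.

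SMAD3, the receptor-regulated SMAD that binds DNA, held 0, 5, 4 and 0 peaks in the same order of lists. In the WT As3+ list 2 peaks were tied as strongest with 17 fragments over 2.31 (7.36 times, 4.29 to 11.8) and an authors' fold of 5.44. They lay at chr15:67065026-67065327, 403 bp upstream of the TSS, and at chr15:67120966-67121602, 55604 bp into the gene in intron 1. Neither overlapped a Nrf2 KO control peak, nor did the WT As3+ peak 833 bp past the TSS. The Nrf2 KO control peaks all lay far inside the gene, at 41874, 85210, 114254 and 121361 bp, and the strongest, at chr15:67186847-67187046 in intron 7, held 6 fragments over 0.532 (11.3 times, 4.14 to 24.6). By the canonical TSS, SMAD3 had a promoter peak after As3+ in WT cells and none in the Nrf2 KO control, but with any annotated TSS of a gene all 9 of the genes had a Nrf2 KO control promoter peak. No Nrf2 KO control peak of SMAD3 passed a −log10 q of 5, and 3 of the 5 WT As3+ peaks did.

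SMAD6, an inhibitory SMAD that acts mainly on BMP signals, held 3, 6, 5 and 0 peaks in that order. Its WT control peaks included one at chr15:66700721-66701003, 1401 bp upstream of the TSS, and the strongest at chr15:66763624-66763863 in intron 3, 61571 bp past it. The strongest WT As3+ peak, at chr15:66763230-66763943, overlapped the latter and was number 429 of its list by p. Near the TSS the WT As3+ list added a peak of 1409 bp with its summit 261 bp upstream (19 fragments over 1.27, 15.0 times, 9.0 to 23.4). The strongest Nrf2 KO control peak, at chr15:66701838-66702260, overlapped it with a summit 54 bp upstream (11 fragments over 0.974, 11.3 times, 5.64 to 20.2). Both lists therefore held a SMAD6 promoter peak. Overlapping peaks near 61571 bp in intron 3 were in 3 of the lists, with the Nrf2 KO control summit at 61268 bp.

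At the 3 sites with a peak in the WT control, the WT As3+ and the Nrf2 KO control list, overlapping peaks could be set beside each other. At the CCDC97 end of TGFB1 the WT control held 25 fragments over a background of 4.84 (5.17 times, interval 3.34 to 7.62), the WT As3+ 32 over 1.93 (16.6 times, 11.4 to 23.5) and the Nrf2 KO control 14 over 1.12 (12.5 times, 6.81 to 20.9). In SMAD6 intron 3, at 61571 bp, the WT control held 23 over 4.45 (5.17 times, 3.27 to 7.75) and the WT As3+ 28 over 1.85 (15.2 times, 10.1 to 21.9). The overlapping Nrf2 KO control peak held 10 over 0.999 (10 times, 4.80 to 18.4), with its summit 274 bp from the WT As3+ summit. At these 2 sites the intervals of the WT libraries lay apart, with the higher value after As3+, and at the other 2 of the 4 sites with a peak in both WT lists they overlapped.

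At SMAD6 −1401 bp the WT control held 16 over 3.07 (5.21 times, 2.98 to 8.47), the WT As3+ 12 over 1.22 (9.86 times, 5.10 to 17.2) and the Nrf2 KO control 10 over 0.999 (10 times, 4.80 to 18.4). At this site the intervals overlap. The intervals of the fragments alone overlapped between the WT libraries at all 4 sites in both WT lists, while the background was 2.41 to 2.72 times higher in the WT control, near the 2.51 times between the lowest backgrounds of the libraries. The higher fragments over background after As3+ therefore come with a lower solved background. What part of it is background, or the scaling of the background between libraries, was not tested.

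**Figure D4:**
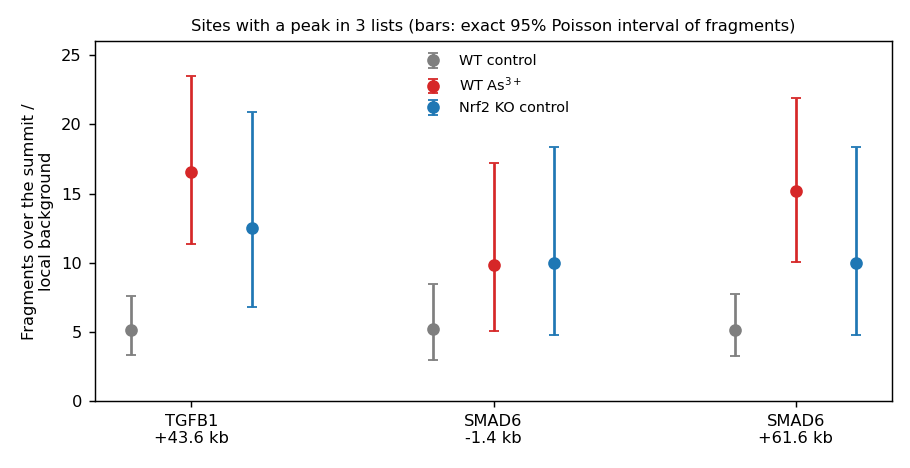
Fragments over background (vertical axis) at the 3 sites with a peak in the WT control, WT As3+ and Nrf2 KO control lists, with exact 95% Poisson intervals of the fragments. The WT As3+ values of 16.6 and 15.2 at TGFB1 and at the last SMAD6 site lie apart from the WT control values of 5.17, and the intervals overlap at the SMAD6 site upstream of the TSS.

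SMAD7, the inhibitory SMAD that blocks the type I receptor, held 0, 7, 11 and 0 peaks. The strongest peak of both lists lay in coding exon 1. It was at chr18:48949960-48950310 in the WT As3+ list, 811 bp past the TSS, with 17 fragments over 1.32 (12.8 times, 7.48 to 20.6), and at chr18:48949813-48950231 in the Nrf2 KO control, 862 bp past it, with 15 over 0.854 (17.6 times, 9.83 to 29.0). Upstream of the TSS the WT As3+ list held peaks at 739, 1496 and 1884 bp and the Nrf2 KO control at 585 and 1764 bp, so the promoter carried a row of separate peaks in both. In intron 3 there were 3 WT As3+ and 6 Nrf2 KO control peaks, with 10 to 13 and 6 to 11 fragments. Of the 6 Nrf2 KO control peaks of SMAD7 without a WT As3+ partner 4 were in this intron, and 3 peaks in each list passed a −log10 q of 5.

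SKIL, the co-repressor of SMAD complexes, held 2 WT As3+ and 3 Nrf2 KO control peaks. The stronger WT As3+ peak, at chr3:170356574-170356908, lay 992 bp upstream of the TSS with 16 fragments over 1.35 (11.9 times, 6.79 to 19.3) and overlapped no Nrf2 KO control peak. The other, 641 bp past the TSS, overlapped Nrf2 KO control peaks, of which the strongest, at chr3:170357468-170358133, held 11 fragments over 1.62 (6.78 times, 3.38 to 12.1) at 278 bp. The third Nrf2 KO control peak, 10325 bp upstream, held 6 fragments. SKIL thus had its intron 1 site called in both lists and the site 992 bp upstream in the WT As3+ list alone, and a difference there was not tested.

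CCN2 (CTGF), a matricellular protein and a widely used target gene of TGF-β, held 3 WT As3+ peaks and 1 Nrf2 KO control peak in a window of 15197 bp. The strongest WT As3+ peak, at chr6:131951133-131951563, lay 88 bp past the TSS in the 5′ UTR with 21 fragments over 2.89 (7.27 times, 4.50 to 11.1) and overlapped no Nrf2 KO control peak. The others lay in intron 2, with 13 fragments, and in the 3′ UTR, with 9 fragments and an AP-1 word within the 200 bp around the summit. The Nrf2 KO control peak, at chr6:131950584-131950978 in exon 2, held 13 fragments over 1.47 (8.83 times, 4.70 to 15.1) and overlapped the intron 2 peak. With SMAD3 and SMAD6, CCN2 was 1 of the genes with more peaks in the WT As3+ than in the Nrf2 KO control list. At a −log10 q of at least 5, CCN2 held 1 peak in each of these lists, and SKIL held 2 and 0.

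Taking all 9 genes, 21 of the 32 WT As3+ peaks overlapped a Nrf2 KO control peak by at least 1 bp (65.6%, 46.8 to 81.4), against 55.6% of all WT As3+ peaks, a value inside the interval. The share was 36.8% among peaks with a −log10 q of at least 5 in both lists and 34.4% where at least 50% of both intervals had to overlap, so it depends on what counts as shared. In the other direction 26 of 44 Nrf2 KO control peaks overlapped a WT As3+ peak (59.1%, 43.2 to 73.7). At 1 bp of overlap, all WT As3+ peaks of TGFB1, TGFBR1 and TGFBR2 had a partner. The 11 without one lay at SMAD3 (3 of its 5 peaks), SMAD6 (3 of 6), SMAD7 (2 of 7), CCN2 (2 of 3) and SKIL (1 of 2). These genes also held most of the 32 WT As3+ peaks. At TGFB1 and TGFBR1 a pair had summits 219 and 269 bp apart, so with summits within 200 bp these genes had unshared peaks too. The 18 Nrf2 KO control peaks without a partner lay at SMAD7 (6), TGFB2 (4), TGFB1 (3), SMAD3 (2), TGFBR2 (1), SMAD6 (1) and SKIL (1).

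In the 21 overlapping pairs the summits were a median of 102 bp apart, and 16 pairs lay within 200 bp. Fragments over background had a median of 8.84 in the WT As3+ and 10 in the Nrf2 KO control library, 7 pairs were higher in the WT As3+, and in 0 pairs were the intervals apart. The intervals are wide at this depth, and a difference at the shared sites was not tested.

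**Figure D5:**
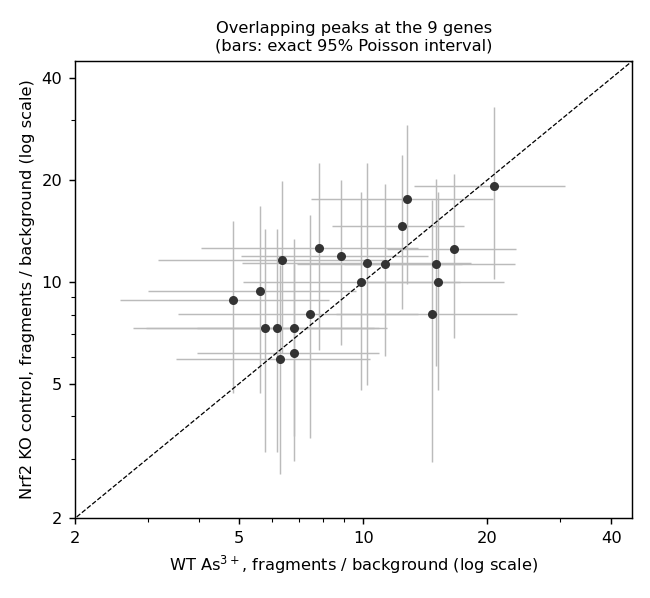
Fragments over background in the WT As3+ (horizontal) and Nrf2 KO control (vertical) library for the 21 overlapping pairs, both on log scales, with exact 95% Poisson intervals and the line of equality. The points lie on both sides of the line, 7 of them higher in the WT As3+ library, and no pair has intervals apart.

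The reach of each list was described by scaling a peak to the background of another library at equal fragments over background, with the lower bound of its fragment interval. At that bound 20 of the 32 WT As3+ peaks, at a 2.16 times higher background, would have passed the lowest −log10 p of the Nrf2 KO As3+ list (5.03), and 19 of the 44 Nrf2 KO control peaks, at a 3.33 times higher one. Of the 28 WT As3+ peaks with no WT control partner, 19 would have passed the lowest −log10 p of the WT control list (4.64). Between the larger lists it was 1 of the 18 Nrf2 KO control peaks without a WT As3+ partner and 4 of the 11 WT As3+ peaks without a Nrf2 KO control partner. At the solved fragments over background, in place of the lower bound, all of the peaks in each of these comparisons would have passed (32, 44, 28, 18 and 11). These peaks were in the lists because they passed there, so the counts describe reach and do not test a difference.

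The peaks at the 9 genes had a median width of 382 bp against 290 bp over the WT As3+ list and 359 bp against 267 bp over the Nrf2 KO control list. Ranked by p from the strongest, they lay at a median of 23.4% and 40.9% of these lists, and the part of peak strength in the width was not tested. Of the 32 WT As3+ peaks 17 lay within 2 kb of the canonical TSS of their own gene among the 9 (53.1%, 34.7 to 70.9). Of the 44 Nrf2 KO control peaks 16 did (36.4%, 22.4 to 52.2). Peaks near the CCDC97 TSS in the TGFB1 window are not counted here. By place, 14 WT As3+ peaks lay in introns, 8 upstream, 4 in a 5′ UTR, 1 in a coding exon, 1 in a 3′ UTR and 4 past the canonical TGFB1 transcript. For the Nrf2 KO control, 22 lay in introns, 6 upstream, 4 in a 5′ UTR, 4 in coding exons and 8 past that transcript. The shares near the canonical TSS have overlapping intervals.

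In 200 bp around the summit the word CCACACCC or CCACGCCC was found on either strand at 0 of the 32 WT As3+ peaks (0 to 10.9%), against 10.3% of all WT As3+ peaks, and at 2 of the 44 Nrf2 KO control peaks (4.55%, 0.555 to 15.5), against 9.27%. The shorter KLF-type words shown in capitals above, which also match inside the longer one, were found at 13 of 32 (40.6%, 23.7 to 59.4) against 33.4%, and at 14 of 44 (31.8%, 18.6 to 47.6) against 32.2%. Of the 4 WT control peaks 3 held such a word, against 49.5% of that list, and 0 held CCACACCC or CCACGCCC, against 26.5%. In each case the share of the whole list lies inside the interval.

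For the other words the shares at the WT As3+ peaks were 6.25% for AP-1 (all peaks 4.33%), 9.38% for the ARE core (9.36%), 9.38% for the SMAD word (10.8%) and 12.5% for the GC box (7.76%). At the Nrf2 KO control peaks they were 2.27% (2.54%), 9.09% (9.17%), 15.9% (11.7%) and 13.6% (4.61%). The GC box of the Nrf2 KO control, at 6 of 44 peaks (interval 5.17 to 27.4), was the word whose interval left out the share of all peaks, among 12 comparisons of these 2 lists. The windows at the 9 genes were also richer in GC, with a median of 64.8% against 61.5% in that list, and the part of this in the GC box count was not tested.

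The 53 other genes of the pathway were a list of ligands, traps, receptors, SMADs, repressors and targets. A peak was present at 2 of them in the WT control (2.51% of all protein-coding genes) and 50 in the WT As3+ list (66.5%). It was present at 52 in the Nrf2 KO control list (81.0%) and 0 in the Nrf2 KO As3+ list (0.439%). In the same order a promoter peak was present at 0 (0.794%), 44 (52.5%), 49 (67.5%) and 0 (0.195%). A peak in the WT As3+ list and none in the WT control was found at 48 (64.0%). Their windows had a median of 67.9 kb, against 39.5 kb over all protein-coding genes. By role, the WT As3+ and Nrf2 KO control lists held a peak at 7 and 8 of 8 ligands, 10 and 9 of 10 genes of ligand release and trapping, 10 and 11 of 11 receptors and co-receptors, and 5 and 6 of 6 receptor-regulated and common SMADs. All 8 repressors and ubiquitin ligases and all 10 target genes had a peak in both. BMP2, BMPR1B and SMAD4, the common partner SMAD, had none in the WT As3+ list, and ITGB6 had none in the Nrf2 KO control.

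The WT control peaks of these other genes lay at ITGB6 and TGFBR3. ITGB6 encodes a subunit of the integrin that activates latent TGF-β, and its peak at chr2:160208184-160208417, 8049 bp upstream of the TSS, held 37 fragments over 6.00 (6.16 times) and overlapped a WT As3+ peak. TGFBR3, the co-receptor betaglycan, had its peak at chr1:91900690-91900890 with 20 fragments over 4.55 (4.40 times) and no partner in the other lists. The most WT As3+ peaks were found at LTBP4, which binds latent TGF-β in the matrix (10, and 17 in the Nrf2 KO control), SKI, the co-repressor related to SKIL (10 and 22), and INHBB, an activin subunit (6 and 4). SMAD7 with 7, and TGFB1 and SMAD6 with 6 each, were in the same range in the WT As3+ list.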

How the data were processed

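KLF4 ChIP-seq peak lists of BEAS-2B cells were analysed, 1 library for each of 4 conditions taken from the sample labels. The other 10 samples (H3K4me1, H3K27Ac and input) were left aside. Reads were aligned by the authors to GRCh38/hg38 using BWA at default settings, and the authors deposited 1 narrow peak list per library. The peak caller is not given in the sources used here. The deposited lists give a fold enrichment (a ratio to the local background), the summit's −log10 p and −log10 q, and a score of 10 times the −log10 q.

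Fragments (n) and background (λ) were solved by setting the fold to (n + 1)/(λ + 1) and the p to the upper Poisson tail, with a largest misfit in −log10 p of 0.000405. This gives the depth behind each peak, with medians of 25, 10, 7 and 19 fragments for WT control, WT As3+, Nrf2 KO control and Nrf2 KO As3+. Read totals were not used. Steps were tested on simulated data. Genes, canonical transcripts and TSS came from GENCODE 44. Shares carry exact Clopper-Pearson and fragments exact Poisson intervals at 95%, which leave out variation between cultures.

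The 9 genes and the lists of other pathway genes and motif words were chosen with earlier results of these data known. For each of the 9 genes the text names the WT As3+ and Nrf2 KO control peaks with the largest −log10 p and the WT control and Nrf2 KO As3+ peaks, of which 1 is not reported here. Of the other pathway genes it names those with a WT control or Nrf2 KO As3+ peak and the 3 with the most WT As3+ peaks. Further peaks and genes named, among them BMP2, BMPR1B and SMAD4, were chosen after their values were seen. The alternatives were other peak thresholds, gene and promoter windows, definitions of a shared peak, motif windows and words. A window along the canonical transcript was added after seeing the data. The tools were matplotlib 3.10.9, pandas 2.3.3, scipy 1.17.1 and numpy 2.4.6 under Python 3.11.15.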

Additional observations from a re-analysis of the deposited data

Results flagged for a closer look

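The treated and untreated lists differed in opposite directions in the 2 genotypes. In WT cells the number of peaks at the 9 genes was higher by 28 after As3+, from 4 to 32. In Nrf2 KO cells it fell by 44, from 44 to 0. The whole lists moved the same way, from 751 to 29870 peaks in WT cells and from 76545 to 130 in Nrf2 KO cells, so the direction is not particular to these genes. The lowest solved background was lower for the WT As3+ than for the WT control list (0.757 and 1.90 fragments). It was higher for the Nrf2 KO As3+ than for the Nrf2 KO control list (1.64 and 0.491). With 1 library per condition the difference between genotypes was not tested.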

How the results depend on the processing

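Of 97 values recomputed under an alternative, 86 stayed within 1.5 times the count or within the counting interval of the value reported, and 11 moved further. At −log10 q values of 5 or more, the peaks at the 9 genes were 2 in the WT control, 19 in the WT As3+ and 14 in the Nrf2 KO control list, so the order of the larger lists turned, the WT control had 0 genes with a promoter peak, and 36.8% of the WT As3+ peaks were shared with the Nrf2 KO control. A promoter of 1 kb also left 0 genes in the WT control. An overlap of 50% of both intervals gave 34.4% of the WT As3+ and 25.0% of the Nrf2 KO control peaks as shared, and summits within 200 bp gave 36.4% of the latter. The wider KLF-type words were found at 40.6% of the WT As3+ peaks. With the canonical transcript in place of the gene, chosen after seeing the data, 1 gene had a WT control peak. No paired analysis was possible because each condition has 1 library and the labels carry no replicate numbers. Counts of 5 to 32 fragments per peak limit what these lists can show, since a weaker peak does not enter a list.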
